A study of Homo sapiens with 2 samples.

Results

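The hypoxia target genes CA9, CA12, ADM, ANKRD37, BNIP3, BNIP3L, NDRG1, DDIT4, P4HA1 and P4HA2 were examined for lysine lactylation in CAL27 cells. They are 10 of 20037 protein-coding genes and were listed by name as targets of hypoxia-inducible factor (HIF). Every peak region inside the annotated gene or within 20 kb of it was taken, which gave 34 of 43452 regions in 1 library and 36 of 50147 in the other. CAL27 is an established human cell line from an oral squamous carcinoma. Cells were left untreated or were given 10 mM lactate for 24 hours, with 1 library each, and neither group is labelled with a low-oxygen treatment. Lactylation was mapped by CUT&Tag, in which a transposase is guided by an antibody and cuts and tags the DNA around it. The antibody used binds lactyl-lysine in any protein, histone or not.

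When oxygen is scarce, the HIF alpha subunits are no longer hydroxylated and degraded. They pair with ARNT and bind hypoxia response elements, whose core reads ACGTG or GCGTG, in the control regions of their targets. The targets serve adaptation to low oxygen: carbonic anhydrases keep cell pH steady, adrenomedullin widens vessels, BNIP3 and BNIP3L mark mitochondria for removal, DDIT4 restrains mTORC1 growth signalling, and prolyl 4-hydroxylases modify collagen. HIF also raises glycolysis and with it the output of lactate, the source of the lactyl group measured here.

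The untreated-labelled library held 15696147 tags and the lactate-labelled library 15120031. In each deposited list the run name, the input file and all peak names carry the other sample's name. A separate name entry matches the label instead, with CAL27 for the untreated-labelled library and CAL27_la for the lactate-labelled library. The entries of each list thus disagree among themselves, and those first named conflict with the labels. The labels were kept, and every direction between the libraries below would turn if the lists were exchanged. With 1 library per group no difference has a replicate check and no p-value is given. The 95% intervals (exact) cover counting error only, and tags from PCR-amplified libraries are not independent molecules. Intervals of shares treat genes, regions or pairs as independent draws, though the genes were listed by name and regions of a locus lie together. Each region is given with its pileup, the number of tags over its summit, and its fold enrichment over the local background of the same library, both the authors' values. A list holds called peaks only, the weakest with a pileup of 6 tags, so a place without a region had no call and was not shown to lack the mark.

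Gene-end marks were found at most of the hypoxia target genes, mostly at the start and in both libraries. A region was counted at a gene end when it overlapped the 1 kb before or after an annotated end. ADM, ANKRD37, BNIP3, BNIP3L, NDRG1, DDIT4 and P4HA1 carried a gene-end region in both libraries, 7 of 10. The interval of that share, 34.8% to 93.3%, includes the 39.8% of all protein-coding genes. P4HA2 was marked at its ends in the lactate-labelled library alone, as were 9.70% of all genes. In the untreated-labelled library alone 0 of the 10 were, against 3.74%. CA9 and CA12 had no gene-end region in either library. CA12 was marked inside the gene in both libraries and at neither end, a pattern of 13.3% of all genes. CA9 had no region inside or at its ends in either library, as 28.2% of all genes. All 10 loci held some region in both libraries once the 20 kb flanks were counted, against 78.0% of all genes.

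Of the 34 regions in the untreated-labelled library, 12 lay at gene ends, 7 were intragenic and 15 flanking. Of the 36 in the lactate-labelled library, 12 lay at gene ends, 8 were intragenic and 16 flanking. The intragenic regions belonged to CA12, P4HA2 and, with a single region of the lactate-labelled library, P4HA1. The 1 kb windows at both ends cover most of ADM (2.33 kb) and DDIT4 (2.11 kb). Such short genes had little or no room for an intragenic region. Regions per locus ran from 1 to 5 in the untreated-labelled library and from 1 to 6 in the lactate-labelled library, with medians of 4 and 3.5 against 2 and 2 over all genes. Loci differ in length, and per 100 kb the medians were 4.85 and 5.75 against 2.31 and 2.82 over all genes.

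**Figure D1:**
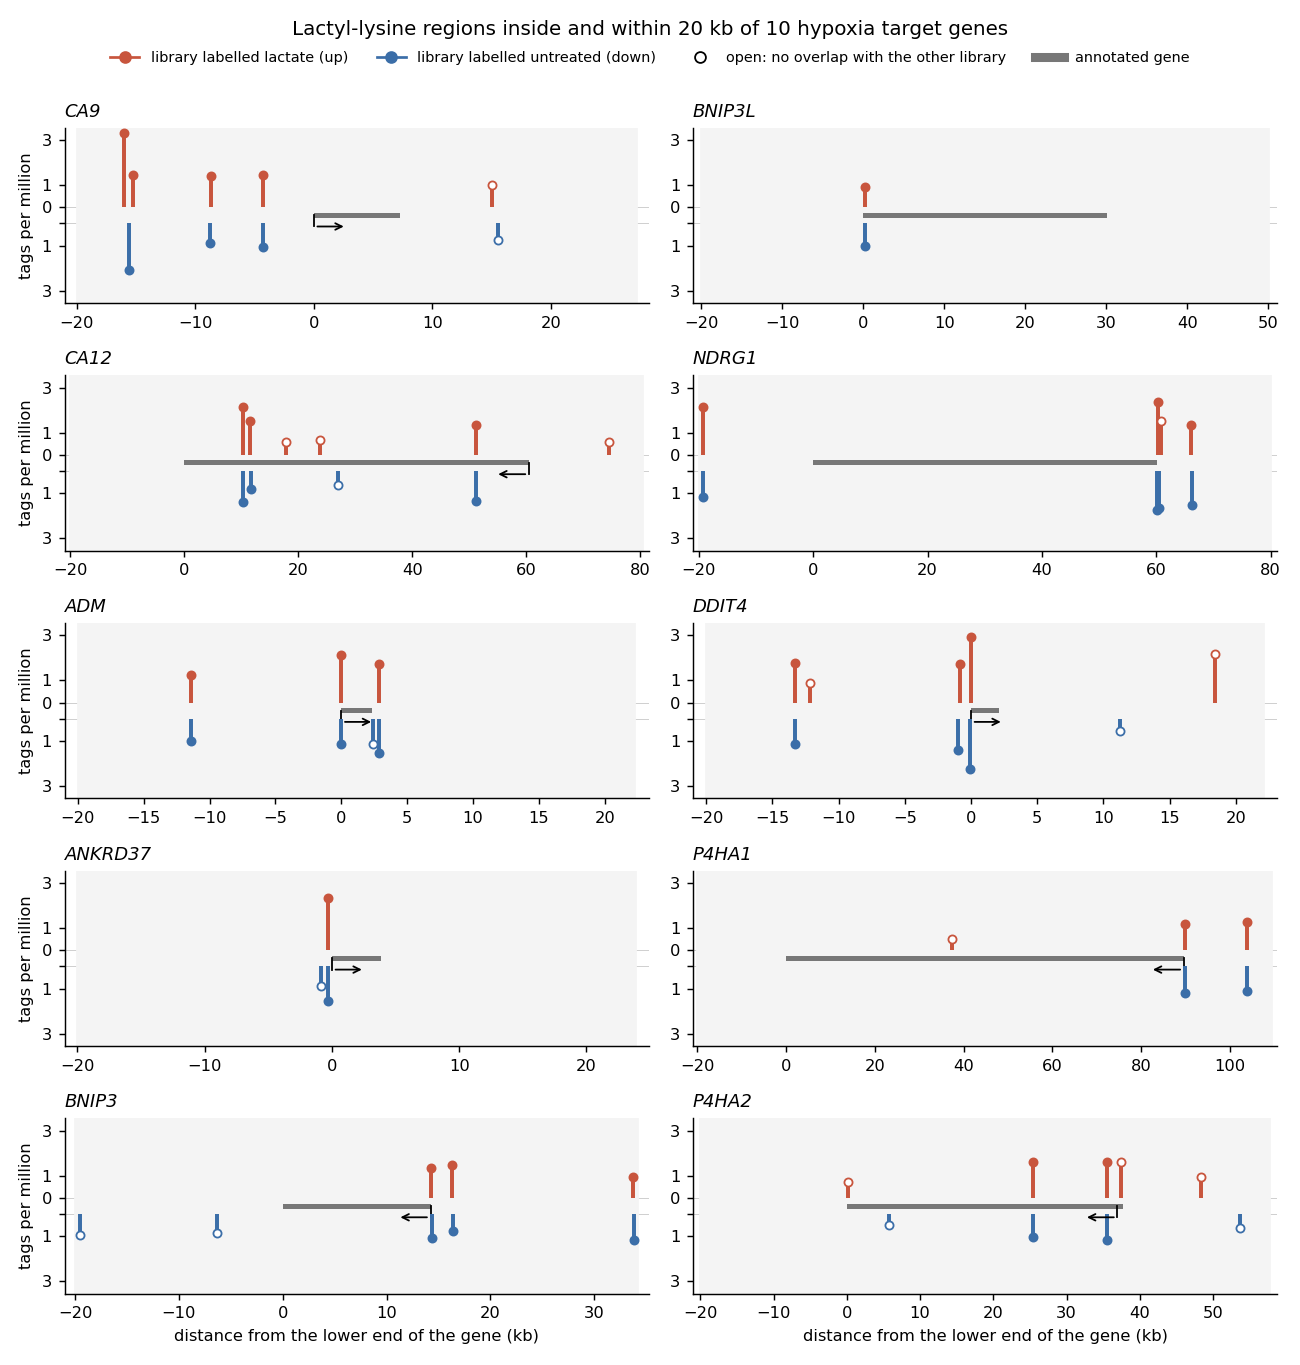
Position and height of every region at the 10 loci, with the distance of the summit from the lower end of the gene in kb on the x axis and pileup scaled to library tags as stem length, upward for the lactate-labelled library and downward for the untreated-labelled library. Grey bars are the annotated genes, arrows the RefSeq starts where the strand was used, and open circles regions without overlap in the other library, and 7 of the 10 genes show stems of both colours at a gene end.

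The promoters show how the HIF core motif lies relative to the marked starts. For the 8 hypoxia target genes with an entry, RefSeq's promoter table (GRCh38.p14, the hg38 assembly of the peaks) gives the strand and the bases before the start. The cores ACGTG and GCGTG were searched on both strands of the 250 bases before the start, so that CACGT and CACGC are their reverse complements. At least 1 was found at 7 of the 8, all but P4HA2, against 50.5% of 15843 protein-coding promoters. The P4HA2 bases searched precede a start inside the annotated gene, so its motif and GC values belong to that inner start. The bases before its annotated end were not searched. ACGTG was found at 5 of 8 against 20.8%, and the palindrome CACGTG, the E-box, which overlaps ACGTG on both strands, at ANKRD37 and BNIP3, against 7.84%. Since the genes were listed as HIF targets, these shares are a description. A match is not shown to be a bound site. Below are 4 promoters marked in both libraries and that of CA9, which was not, with the matches in capitals.
ANKRD37, chr4:185396591-185396840, plus strand: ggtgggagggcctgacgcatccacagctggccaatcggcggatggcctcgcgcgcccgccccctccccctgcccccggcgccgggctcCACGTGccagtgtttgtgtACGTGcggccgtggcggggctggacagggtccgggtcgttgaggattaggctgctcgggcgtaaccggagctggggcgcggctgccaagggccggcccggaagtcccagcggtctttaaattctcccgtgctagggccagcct
BNIP3, chr10:131981924-131982173, minus strand: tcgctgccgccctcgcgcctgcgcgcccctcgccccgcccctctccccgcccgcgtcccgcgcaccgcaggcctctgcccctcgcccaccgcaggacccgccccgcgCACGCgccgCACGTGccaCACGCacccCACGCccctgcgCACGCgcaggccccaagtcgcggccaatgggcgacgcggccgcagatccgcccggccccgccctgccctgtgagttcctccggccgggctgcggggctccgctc
DDIT4, chr10:72273674-72273923, plus strand: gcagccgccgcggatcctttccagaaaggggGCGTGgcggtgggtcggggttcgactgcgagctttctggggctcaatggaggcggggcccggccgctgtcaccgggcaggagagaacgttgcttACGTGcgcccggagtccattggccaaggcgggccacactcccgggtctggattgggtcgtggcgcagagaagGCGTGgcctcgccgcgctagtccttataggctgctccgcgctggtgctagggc
P4HA1, chr10:73096867-73097116, minus strand: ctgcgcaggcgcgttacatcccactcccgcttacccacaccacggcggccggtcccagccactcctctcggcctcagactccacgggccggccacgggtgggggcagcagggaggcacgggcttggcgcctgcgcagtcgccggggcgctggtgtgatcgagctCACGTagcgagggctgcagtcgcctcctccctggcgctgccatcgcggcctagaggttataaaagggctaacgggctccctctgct
CA9, chr9:35673678-35673927, plus strand: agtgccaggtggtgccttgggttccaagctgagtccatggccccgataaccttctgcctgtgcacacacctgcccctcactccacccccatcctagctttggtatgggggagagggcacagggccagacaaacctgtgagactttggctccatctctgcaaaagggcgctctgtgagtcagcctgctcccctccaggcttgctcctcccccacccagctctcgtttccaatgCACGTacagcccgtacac

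At ANKRD37 and P4HA1 all 250 bases lay inside a region of each library. At BNIP3 248 bases lay inside the region of the untreated-labelled library and 250 inside that of the lactate-labelled library, and at DDIT4 220 and 250. At ADM, whose promoter is not printed, only 66 bases lay inside in the untreated-labelled library, and 250 in the lactate-labelled library. The summits of both libraries fell within the printed bases at BNIP3, DDIT4 and P4HA1, and at ANKRD37 the strongest summits lay just upstream of them. At CA9 0 bases lay in a region of either library, and a CACGT match stands 18 bases before its start. The 5 promoters at starts marked in both libraries, which include ADM, had a GC content of 68.0% to 81.6%, and those of CA9, CA12 and P4HA2 60.4%, 64.8% and 54.8%. The part of base composition in the calls was not tested.

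CA9 encodes carbonic anhydrase IX, the cell-surface enzyme that is the textbook marker of tumour hypoxia. Its gene, 7.23 kb on chromosome 9 from 35673928 to 35681159, held 0 regions in each library. The nearest lay 4.12 kb upstream, from 35669545 to 35669809 with 17 tags and a fold enrichment of 4.43 in the untreated-labelled library, and from 35669279 to 35669807 with 22 tags and 4.79 in the lactate-labelled library. A weaker pair stood 8.62 and 8.56 kb upstream, with 14 and 21 tags, at an end of ARHGEF39. The highest pileups of the locus, 33 and 50 tags, were 15.2 and 15.5 kb upstream, where RMRP, the RNA of a mitochondrial RNA-processing ribonuclease, CCDC107 and ARHGEF39 have ends. They thus lie at the ends of other genes. The lactate-labelled library had a further region there, from 35658576 to 35658788 with 22 tags, which the 1 broad region of the untreated-labelled library (35657756 to 35658777) also covered. Downstream, each library had a region near an end of TPM2, a tropomyosin gene, with 12 and 15 tags, and these were 292 bp apart and did not overlap.

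CA12 encodes carbonic anhydrase XII, a membrane enzyme of epithelia. Its 60.5 kb gene lies on the minus strand of chromosome 15 from 63321378 to 63381846 and was marked only inside, away from its ends, apart from 1 flanking region. The regions of highest pileup were far from the start, 50.2 kb downstream: 63331521 to 63331797 with 22 tags and 5.75-fold in the untreated-labelled library, and 63331514 to 63331863 with 32 tags and 7.24-fold in the lactate-labelled library. Beside them lay a pair with 13 and 23 tags, and both pairs also lie inside another RefSeq gene. The pair nearest the start, 9.36 and 9.33 kb downstream of the start, had 21 and 20 tags and 6.15-fold and 5.97-fold. All 3 pairs overlapped, while the intragenic regions found in 1 library alone were the weakest, with 10 tags (63348282 to 63348604) in the untreated-labelled library and 9 (63338849 to 63339212) and 10 (63345070 to 63345269) in the lactate-labelled library. A flanking region 13.9 kb upstream of the start, with 9 tags, was in the lactate-labelled library alone and lies inside a long noncoding RNA gene. The annotation used has no exons, so exonic and intronic places were not told apart.

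ADM encodes adrenomedullin, a secreted vasodilator peptide. It is a 2.33 kb gene on the plus strand of chromosome 11 (10305073 to 10307397) and was marked at both ends. At the start, the region from 10305007 to 10305206 had 18 tags (2.30-fold) in the untreated-labelled library. That from 10304574 to 10305316 had 32 (3.34-fold) in the lactate-labelled library, and the summits stood 1 and 13 bp before the start. Scaled to library tags the ratio was 1.85 (interval 1.01 to 3.49). At the far end, regions from 10307852 to 10308227 and from 10307786 to 10308222 had 24 and 26 tags, a ratio of 1.12 (0.621 to 2.05). A further far-end region of the untreated-labelled library, 10307421 to 10307620 with 18 tags, lay 166 bp from the nearest region of the other library. The start region also lies within 1 kb of an end of SBF2, and the far-end regions within 1 kb of an end of a long noncoding RNA gene, so they cannot be assigned to ADM alone. The single flanking pair, 16 and 19 tags, lies about 11 kb upstream inside SBF2.

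ANKRD37, which encodes a small ankyrin repeat protein, held the highest fold enrichment at any gene end of the hypoxia target genes in both libraries. On chromosome 4, the region from 185396358 to 185396997 had 24 tags and 9.06-fold enrichment in the untreated-labelled library, above 98.0% of that library's regions. That from 185396328 to 185397060 had 35 tags and 11.6-fold in the lactate-labelled library, above 99.5%. The pileup ratio was 1.51 (0.875 to 2.66). Both regions had 2 summits in nearly the same places, at 185396539 and 185396828 with 24 and 11 tags, and at 185396542 and 185396860 with 35 and 16. The stronger summit stood 302 and 299 bp before the start. LRP2BP has an end within 1 kb of the same region. A weaker region in the untreated-labelled library alone, with 14 tags, lay 276 bp from the region of the other library, and no region in either library was intragenic or flanking.

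BNIP3 and BNIP3L encode related outer mitochondrial membrane proteins that recruit the autophagy machinery, and both carried 1 gene-end region in each library. BNIP3 lies on the minus strand of chromosome 10 (131967684 to 131981923). Its start region spanned 131981926 to 131982199 with 17 tags and 5.08-fold in the untreated-labelled library, and 131981859 to 131982199 with 20 tags and 5.68-fold in the lactate-labelled library. A second pair 1.91 kb upstream of the start, outside the gene-end window, had 12 and 22 tags, the largest ratio of the 25 pairs (1.90, 0.902 to 4.22). Another pair 19.5 and 19.4 kb upstream had 18 and 14 tags, the smallest ratio (0.807, 0.372 to 1.72). Neither interval excluded 1. On the other side, inside PPP2R2D, a phosphatase subunit gene, the untreated-labelled library alone had regions of 15 and 13 tags, and the nearest of the other library were 27.3 and 20.3 kb away. At BNIP3L, on chromosome 8 from 26383054 to 26413127, the lower end was marked from 26382910 to 26383441 with 16 tags and 7.39-fold, and from 26382717 to 26383439 with 14 tags and 6.58-fold. These were the only regions of that locus, and each again had 2 summits, at 26383025 and 26383321 and at 26382995 and 26383309. A pseudogene, SDAD1P1, has an end within 1 kb of them.

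NDRG1 and DDIT4 are stress-response genes. NDRG1 encodes a cytoplasmic protein linked to differentiation and lies on chromosome 8 from 133237175 to 133297252. The strand of NDRG1 and BNIP3L was not used here, so their ends are named by coordinate. All gene-end regions of NDRG1 were at the upper end. In the untreated-labelled library they ran from 133297152 to 133297463 (27 tags, 4.81-fold) and from 133297605 to 133297828 (26 tags, 4.67-fold), and 1 region of the lactate-labelled library, 133297225 to 133297828, overlapped both. It had summits of 36 and 23 tags. The lactate-labelled library had a further region from 133297951 to 133298247 with 23 tags, 123 bp from the nearest region of the other. No region in either library lay inside the 60.1 kb gene away from its ends. A flanking pair 5.87 and 5.89 kb above the gene had 24 and 20 tags, with 8.39-fold and 6.25-fold. Another, 19.0 kb below it inside CCN4, which encodes a secreted matricellular protein, had 18 and 32 tags (ratio 1.85, 1.01 to 3.49).

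DDIT4 had the highest pileup at any gene end of the hypoxia target genes in both libraries. Its 2.11 kb gene lies on the plus strand of chromosome 10 from 72273924 to 72276036. The region across its start, 72273704 to 72274028 and 72273654 to 72274113, had 35 tags (4.71-fold) and 44 tags (5.57-fold), above 95.6% and 96.6% of each library's regions, with a ratio of 1.31 (0.818 to 2.1). A second start-side pair, 72272870 to 72273245 and 72272884 to 72273343, had 22 and 26 tags. DDIT4-AS1, an antisense RNA gene, has an end within 1 kb of both pairs. A flanking pair 13.1 and 12.9 kb upstream had 18 and 27 tags. The lactate-labelled library alone had a region 16.2 kb downstream, 72292229 to 72292622, with 33 tags and 6.42-fold, the strongest region without overlap at any of the 10 loci, and the nearest region of the other library lay 5.39 kb away. The other regions without overlap were weak, with 13 tags 12.1 kb upstream in the lactate-labelled library and 9 tags 9.07 kb downstream in the untreated-labelled library.

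P4HA1 and P4HA2 encode the catalytic subunits of collagen prolyl 4-hydroxylase, and their marks differed in place. P4HA1, 89.7 kb on the minus strand of chromosome 10 (73007217 to 73096866), was marked at the start from 73096686 to 73097193 with 19 tags and 6.41-fold in the untreated-labelled library, and from 73096695 to 73097223 with 18 tags and 5.40-fold in the lactate-labelled library. The ratio was 0.983 (0.487 to 1.98). A pair 14.1 kb upstream, with 17 and 19 tags, lies at an end of NUDT13. The intragenic region of P4HA1, in the lactate-labelled library alone, had 8 tags.

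P4HA2, on the minus strand of chromosome 5 from 132190147 to 132227853, had 0 gene-end regions in the untreated-labelled library and 2 in the lactate-labelled library, 1 at each end. The region on the start side, 132227414 to 132227623, had 24 tags and 4.58-fold, and the nearest region of the other library was 1.55 kb away. The far-end region, 132190221 to 132190481, had 11 tags and 5.71-fold and lies inside P4HA2-AS1, an antisense RNA gene. It has the higher fold and the lower pileup of the pair. RefSeq's promoter table places the P4HA2 start at 132227091, inside the annotated gene, and the start-side summit is 434 bp before it. Intragenic pairs overlapped at 132215442 to 132215778 and 132215323 to 132215689 (16 and 24 tags) and at 132225234 to 132225860 and 132225539 to 132225929 (18 and 24 tags). The regions without overlap away from the ends had 8 and 10 tags in the untreated-labelled library and 14 in the lactate-labelled library. With a gene-end window of 2 kb the pair nearest the start counts as a gene-end region in both libraries, and P4HA2 is then marked in both. At the far end, ADM was the only hypoxia target gene of known strand marked in both libraries, 1 of 8, against 4.31% of 15843 genes. At the start 5 of 8 were, against 39.9%.

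The comparison of the libraries asked how the same sites stood in cells given lactate. Of the 34 regions in the untreated-labelled library, 25 shared at least 1 bp with one of the other list (73.5%, interval 55.6% to 87.1%), against 71.2% of all its regions. Of the 36 in the lactate-labelled library 25 did (69.4%, interval 51.9% to 83.7%), against 61.1%. Both shares are thus near those of all regions. The overlapping regions had median pileups of 18 and 23 tags, and those without overlap 12 and 13. Of the latter, 3 of 9 in the untreated-labelled library and 3 of 11 in the lactate-labelled library had a region of the other library within 1 kb.

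Pileups of overlapping regions were mostly higher in the lactate-labelled library, as they were over the genome. Among the 25 pairs the median ratio per library tag was 1.38, from 0.807 to 1.90, and 20 were above 1. The median of all 30958 pairs was 1.19, with 72.0% above 1, a shift of 0.25 on the log2 scale. Relative to that shift the median of the 25 pairs was 1.17. A ratio of at least 1.5 was reached by 10 of 25 (40%, interval 21.1% to 61.3%), against 21.6% of all pairs, which lies inside that interval, and a ratio of at most 1 in 1.5 by 0, against 2.89%. The 10 were at CA9 (2), CA12 (2), ADM, ANKRD37, BNIP3, NDRG1, DDIT4 and P4HA2, and only 2 of them, ADM and ANKRD37, were gene-end pairs. By place the median ratio was 1.27 over 10 gene-end pairs, 1.51 over 5 intragenic pairs and 1.45 over 10 flanking pairs. The intervals of single pairs were wide: that of the start pair of ADM and that of the flanking pair of NDRG1 inside CCN4 lay above 1, both from 18 and 32 tags, and the lower bounds were 1.01 in each. The 25 pairs used 24 regions of the lactate-labelled library, since 1 region of NDRG1 paired with 2.

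**Figure D2:**
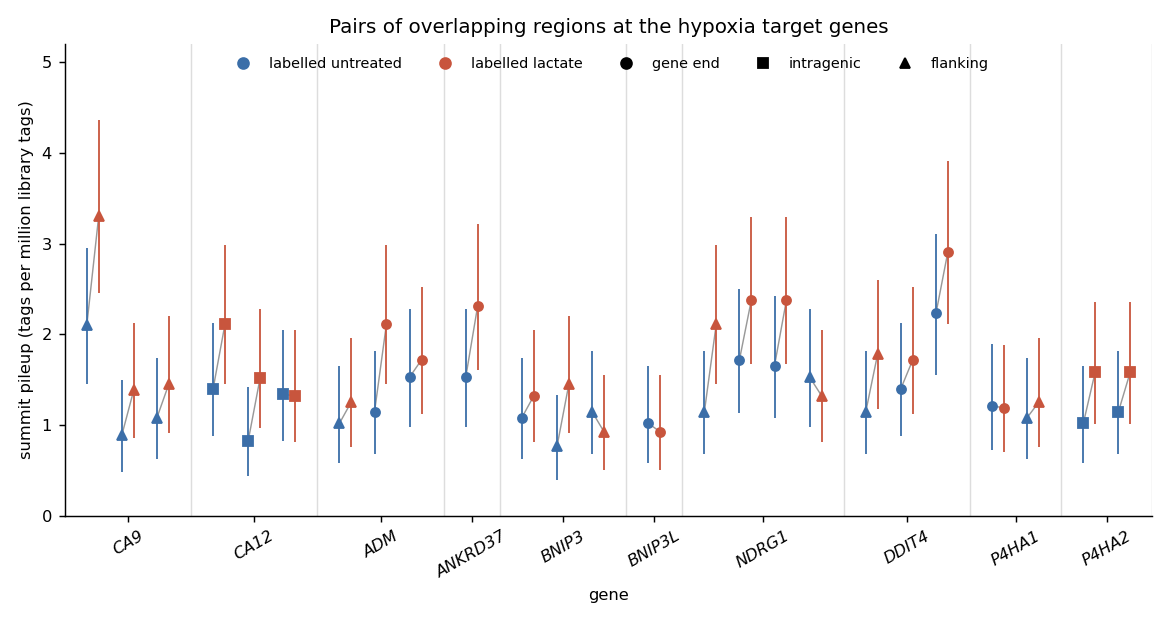
Summit pileup scaled to library tags (y axis) of the 25 pairs of overlapping regions, by gene (x axis), blue for the untreated-labelled library and red for the lactate-labelled library, with 95% exact Poisson intervals that cover counting error only. Symbols give the place of the region, and 20 of the 25 red points lie above their blue partner.

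**Figure D3:**
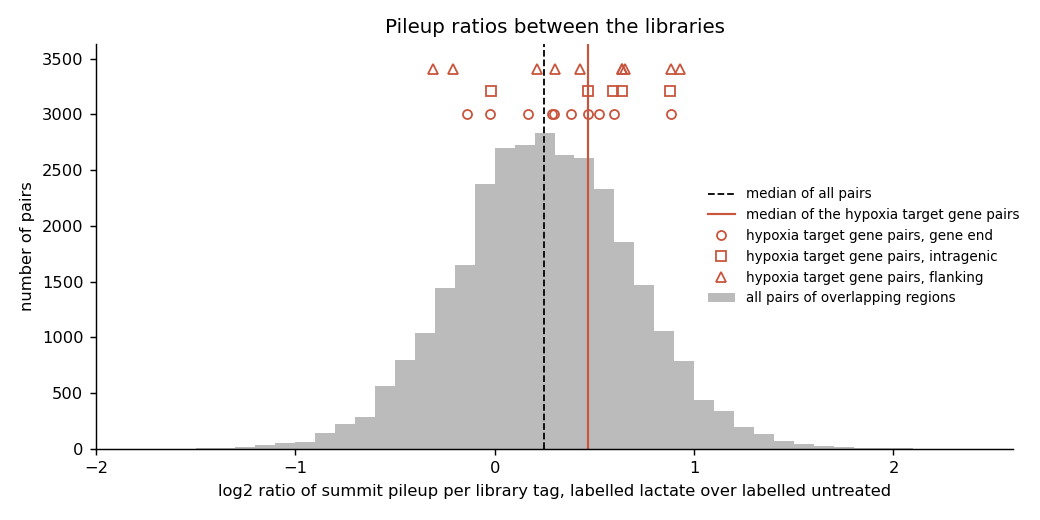
Number of pairs of overlapping regions (y axis) by log2 ratio of pileup per library tag, labelled lactate over labelled untreated (x axis), for all 30958 pairs in grey, with the 25 pairs of the hypoxia target genes as open symbols above. The dashed line is the median of all pairs (0.25), the red line that of the hypoxia target genes (0.47), and the symbols lie within the spread of the grey bars.

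Pileup and fold enrichment ranked the hypoxia target genes differently, and the local background differed between loci. With no control sample, that background came from tags of the same library over up to 10 kb, the tags of marked regions included. How far neighbouring regions raised it was not tested, so a low fold here need not mean a weak mark. At ADM the background under the gene-end regions was 7.26 to 7.48 tags in the untreated-labelled library and 8.80 to 8.88 in the lactate-labelled library, against medians of 2.12 and 2.18 over all regions. At DDIT4 it was 6.46 and 6.64, and 6.88 and 7.08. At NDRG1 it was 4.78 and 4.82, and 6.08 and 6.12. At BNIP3L, the lowest of the gene ends in the untreated-labelled library, it was 1.30. The start region of ADM thus had more tags (18) than the gene-end region of BNIP3L (16) in the untreated-labelled library, and a fold enrichment of 2.30 against 7.39. At a fold enrichment of at least 5, ADM, NDRG1 and DDIT4 lost all gene-end regions in the untreated-labelled library, which left 4 genes marked, and ADM alone lost them in the lactate-labelled library, which left 7. In the untreated-labelled library those 3 had the highest background of the 7 marked genes.

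**Figure D4:**
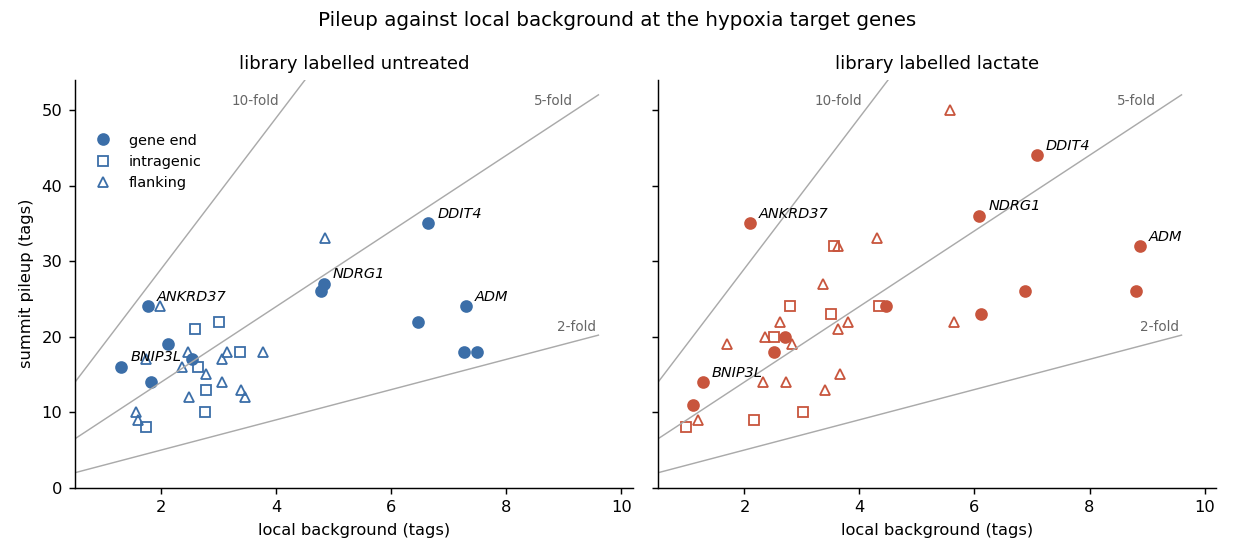
Summit pileup in tags (y axis) against the local background in tags recomputed from pileup and fold (x axis) for the regions of the hypoxia target genes in each library, with grey lines of equal fold enrichment. Gene-end regions of ADM, DDIT4 and NDRG1 lie far to the right, and in the untreated-labelled library they lie below the 5-fold line, while ANKRD37 and BNIP3L lie at low background.

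Other hypoxia-inducible genes were read from a list of 32, of which 31 were counted (FUT11 was not analysed here). Gene-end regions stood in both libraries at 21 of the 31 (67.7%, interval 48.6% to 83.3%), in the lactate-labelled library alone at 0 and in the untreated-labelled library alone at 1. That gene was ALDOC, a brain-type aldolase gene, with 4.61-fold. Ranked by fold in the lactate-labelled library, the first 3 of those marked in both were FAM162A, which encodes a mitochondrial protein, with 8.16-fold in the untreated-labelled library and 9.28-fold in the lactate-labelled library, ANKZF1 with 5.26-fold and 7.24-fold, and PGK1, the phosphoglycerate kinase gene, with 5.95-fold and 7.14-fold. Neither library had one at ANGPTL4, EFNA3, KDM3A, MXI1, PFKFB3, PFKFB4, PLIN2, SLC2A3 and VLDLR. Of these, PLIN2, a lipid droplet coat gene, also had no region inside, as at CA9. PFKFB3, which encodes a regulator of glycolysis, held 4 and 7 regions inside, as CA12 held 4 and 5. At the listed markers of squamous epithelium, KRT5, KRT17, SFN and PERP carried gene-end regions in both libraries, 4 of 9. That is 44.4% (interval 13.7% to 78.8%), near the 39.8% of all protein-coding genes. KRT6A was marked at an end in the lactate-labelled library alone and KRT14, TP63 and DSG3 in neither. Inside the gene, TP63 held 9 regions in the untreated-labelled library and 10 in the lactate-labelled library, DSG3 1 and 1, and KRT14 0 and 0. Markers of other cell types were marked in both in 2 of 10, CD3E and SYP (20%, interval 2.52% to 55.6%). VWF was marked at an end in the untreated-labelled library alone and COL1A1 in the lactate-labelled library alone. Regions inside stood at markers of other cell types too, among them VWF with 5 and 6 and PECAM1 with 2 and 3. A peak is no measure of expression, so these marks do not identify the cell type.

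**Figure D5:**
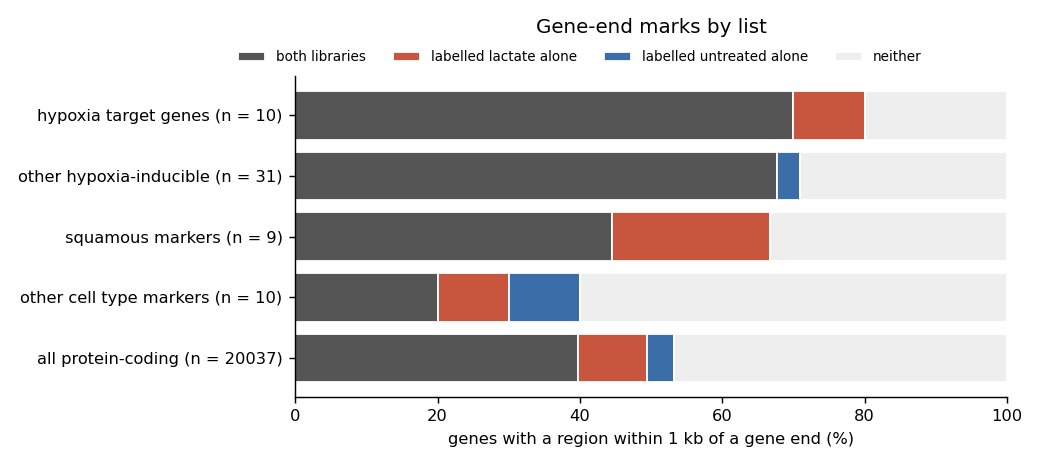
Share of genes in percent (x axis) with a gene-end region in both libraries, in 1 alone or in neither, for each gene list (y axis, with its number of genes). The dark part, both libraries, is 70.0% for the hypoxia target genes, 67.7% for the other hypoxia-inducible genes and 39.8% for all protein-coding genes.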

How the data were processed

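The 2 CUT&Tag libraries were processed by the authors with fastp 0.20.0, BWA and MACS2 2.1.0 on hg38, per the submitters' processing notes. Peaks were called by MACS 2.1.0.20150420 in each library by itself with no control sample and q 0.05, per the file headers, and a -100 bp shift with a 200 bp extension put each tag over its cut site. Without an antibody-free library here, open chromatin and antibody signal cannot be told apart.

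The deposited pileup is a signal counted in tags, unscaled. The deposited fold enrichment is a ratio of pileup to local background, each with 1 added, from which the background was recomputed.

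Summits of equal start and end were merged into 1 region with the values of the summit of highest fold, on chromosomes 1 to 22, X and Y. Regions were classed as gene end (window 1 kb), else intragenic, else flanking (20 kb), on RefSeq genes of GRCh38.p14. Start and strand came from its promoter table, which was used for 15843 genes. Shared regions overlapped by at least 1 bp and were paired by longest overlap. Pileup ratios were divided by library tags, with exact Clopper-Pearson intervals of the split of tags. A summit is the highest point of its region, so pileups are selected high.

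The genes and lists were chosen with earlier results of these data known. The rule for names took the 10 genes with all their regions and the genes at those places, and of the other hypoxia-inducible genes those marked in 1 library alone and, among those marked in both, the 3 of highest fold in the lactate-labelled library. Those marked in neither were named after their values were seen. The value of 1 squamous marker is not reported here. No test was possible, each group being 1 library. The gene-level marks were checked on regions planted inside the gene-end window or at gene midpoints, a check of the code only. Intervals of pileup ratios were checked on simulated Poisson tags, without PCR copies or the choice of summits. Alternatives were a fold of at least 5, equal lists, other windows and flanks, a reciprocal overlap of 50% and other scalings. Software was Python 3.11.15 with SciPy 1.17.1, numpy 2.4.6, pandas 2.3.3 and, for plots, matplotlib 3.10.9.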

Additional observations from a re-analysis of the deposited data

How the results depend on the processing

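The number of hypoxia target genes marked at a gene end, 7 and 8, was 4 in the untreated-labelled library when a fold of 5 or more was asked for. It stayed within 1.5 times under equal lists of 21840 strongest regions, windows of 500 bp and 2 kb, and the start end alone. Strongest here means highest fold enrichment, so the equal lists are also a selection by fold. The start-end counts, 5 and 6, are out of the 8 genes of known strand, and the others out of all 10. Regions at the loci, 34 and 36, fell to 12 and 19 at a fold of at least 5, to 16 and 19 with equal lists and to 19 and 20 without flanks. The overlapping share of the untreated-labelled library was 87.5% with equal lists. With a reciprocal overlap of 50% the shares were 55.9% and 52.8%, within the intervals of the values reported. The median pileup ratio, 1.38, was 1.19 at a fold of at least 5, 1.12 when fold enrichment replaced pileup and 1.17 relative to all pairs, and it stayed above 1 under every alternative run. The 21 other hypoxia-inducible genes marked in both fell to 6 at a fold of at least 5 and to 9 with equal lists. Over all regions the median fold was 4.63 in the untreated-labelled library and 4.87 in the lactate-labelled library, both below 5. The shares of all protein-coding genes at these settings are not given, so the falls in numbers of genes cannot be set against the genome. For regions, the equal lists kept 21840 of all 43680 in the untreated-labelled library and of all 50352 in the lactate-labelled library. At the loci they kept 16 of 34 and 19 of 36. The alternatives for the other hypoxia-inducible genes, the scaling relative to all pairs and the start end alone were added after the data were seen. No paired analysis was possible because each group has 1 library. Depth limits single pairs: at 18 against 32 tags the interval only just excluded 1.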

Other observations

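Regions lay on both sides of the 20 kb limit. Just inside it were the BNIP3 regions at 19.4 and 19.5 kb, with 14 to 18 tags, and the NDRG1 pair at 19.0 kb, with 18 and 32 tags. Just outside were a DDIT4 pair at 22.0 and 21.7 kb with 24 and 27 tags, an NDRG1 pair at 24.6 kb with 15 and 28 tags, and an ANKRD37 pair at 24.9 kb with 20 and 32 tags and fold enrichments of 7.0 and 9.65, in the untreated-labelled library and then the lactate-labelled library. The counts above thus leave out single marked sites a few kb beyond the limit at DDIT4, NDRG1 and ANKRD37.

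Of the flanking regions, 4 of 15 in the untreated-labelled library and 5 of 16 in the lactate-labelled library stood at the end of another gene, 5 and 4 inside another gene, and 6 and 7 outside annotated genes.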
